A study of Oryctolagus cuniculus with 30 samples.

Results

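The 8138 probes described here belong to the UN class of a custom rabbit expression array, of 23369 probes on it that are not controls. They were chosen by their names, which begin with UF_Ocu_UN_ in the scanner files. The other classes hold 14558 probes (AF) and 673 probes (AM), and what the letters stand for is not stated in the labels. Epidermis came from the ears of female New Zealand White rabbits, and each of its 30 samples was put on a one-colour array of its own. Grids of incisions on both ears were kept under 1 layer of Tegaderm, a clear adhesive film. Closure of the epidermis, 2 days after wounding, is called day 0. The right ear then stayed uncovered, while 4 further layers went onto the left ear. The groups were unwounded skin (2 arrays), wounds at day 0 (6 arrays), uncovered wounds at day 3 (6 arrays), covered wounds at day 3 (5 arrays), uncovered wounds at day 5 (6 arrays) and covered wounds at day 5 (5 arrays). All wounds shared the first layer of film. The comparison of covered with uncovered wounds addresses how covering, and with it the hydration of the surface, acts on the new epidermis. The labels tie no array to an animal, so the p-values reflect no more than the scatter among these samples, and both ears of an animal may lie in the groups of a comparison. The array files map no probe to a gene, so neither the epidermal marker genes nor the tissue label could be checked, and probes are given by name and sequence.

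Array probes for a species whose genome is poorly annotated are often designed from expressed sequence tags, which are single reads of cDNA clones, and from contigs assembled out of them. A read can come from either end of a clone, so its relation to the messenger strand may be unknown, and both orientations can be placed on the array. Only 1 of them then has the sequence of the messenger. In the labelling used here total RNA was copied into cDNA with a primer that carries a T7 promoter, and labelled antisense RNA was transcribed from it. That RNA pairs with a probe of the messenger's sense strand. Most messengers carry the hexamer AATAAA, or its variant ATTAAA, shortly before their poly(A) tail.

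The UN class was built of opposite orientations. Its 8138 probes of 60 bases came from 4082 sources (a read or contig named in the array file). Of these, 4056 were represented by 1 probe with the letters rc in the text after the read or contig name and 1 probe without them. The remaining 26 sources had 1 probe. In 130 of the 4056 pairs the probes were exact reverse complements over all 60 bases. In a further 1357 pairs they shared 20 to 59 bases on opposite strands, and 1 pair shared 20 bases on the same strand. The letters rc thus marked the other strand in nearly all pairs whose overlap let it be read. The following pairs are shown because they cover the same stretch of sequence on both strands and the results below return to them. Capitals mark the bases that a probe shares, as reverse complement, with its partner on the line after or before it, and all probes are written 5′ to 3′.
UF_Ocu_UN_117997: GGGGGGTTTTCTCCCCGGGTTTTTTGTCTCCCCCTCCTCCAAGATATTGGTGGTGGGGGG
UF_Ocu_UN_120330: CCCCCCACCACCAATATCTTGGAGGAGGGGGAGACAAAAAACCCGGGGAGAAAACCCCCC
UF_Ocu_UN_123320: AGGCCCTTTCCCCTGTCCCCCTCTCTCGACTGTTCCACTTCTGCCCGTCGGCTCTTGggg
UF_Ocu_UN_116127: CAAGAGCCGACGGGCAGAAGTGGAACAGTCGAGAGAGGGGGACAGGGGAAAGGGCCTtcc
UF_Ocu_UN_120079: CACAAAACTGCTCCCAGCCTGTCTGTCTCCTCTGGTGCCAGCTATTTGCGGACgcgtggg
UF_Ocu_UN_122971: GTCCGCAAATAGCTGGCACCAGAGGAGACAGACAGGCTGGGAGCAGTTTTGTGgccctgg
UF_Ocu_UN_121885: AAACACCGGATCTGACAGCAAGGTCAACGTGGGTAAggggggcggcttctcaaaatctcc
UF_Ocu_UN_122269: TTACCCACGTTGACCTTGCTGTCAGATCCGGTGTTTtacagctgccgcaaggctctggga
UF_Ocu_UN_118945: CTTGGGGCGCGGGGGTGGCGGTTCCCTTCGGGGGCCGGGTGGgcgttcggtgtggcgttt
UF_Ocu_UN_119584: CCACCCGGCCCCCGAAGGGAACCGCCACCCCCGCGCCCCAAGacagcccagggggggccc
UF_Ocu_UN_116030: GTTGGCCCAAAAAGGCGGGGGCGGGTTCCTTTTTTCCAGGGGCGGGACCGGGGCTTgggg
UF_Ocu_UN_117727: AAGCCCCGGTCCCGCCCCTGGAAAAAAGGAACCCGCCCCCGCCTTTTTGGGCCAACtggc

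Next are probes that differed between the groups, shown without marking any overlap with a partner. In those that hold it, AATAAA is in capitals.
UF_Ocu_UN_121601: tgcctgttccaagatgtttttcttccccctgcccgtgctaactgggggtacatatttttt
UF_Ocu_UN_119427: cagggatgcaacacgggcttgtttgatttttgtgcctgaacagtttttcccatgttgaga
UF_Ocu_UN_119077: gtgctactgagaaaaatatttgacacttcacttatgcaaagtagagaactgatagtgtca
UF_Ocu_UN_118064: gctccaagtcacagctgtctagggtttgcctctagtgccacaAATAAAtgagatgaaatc
UF_Ocu_UN_121046: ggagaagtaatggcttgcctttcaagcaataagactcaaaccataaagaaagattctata
UF_Ocu_UN_120322: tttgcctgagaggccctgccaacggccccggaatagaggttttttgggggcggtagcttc
UF_Ocu_UN_118492: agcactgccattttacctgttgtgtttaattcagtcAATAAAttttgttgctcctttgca
UF_Ocu_UN_116775: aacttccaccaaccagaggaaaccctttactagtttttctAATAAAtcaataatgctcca
UF_Ocu_UN_119434: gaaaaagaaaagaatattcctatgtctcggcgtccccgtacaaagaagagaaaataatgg
UF_Ocu_UN_118225: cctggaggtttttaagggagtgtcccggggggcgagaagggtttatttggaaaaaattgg
UF_Ocu_UN_118571: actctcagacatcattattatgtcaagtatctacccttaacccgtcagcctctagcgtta
UF_Ocu_UN_121510: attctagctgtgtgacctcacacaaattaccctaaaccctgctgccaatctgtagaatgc
UF_Ocu_UN_116788: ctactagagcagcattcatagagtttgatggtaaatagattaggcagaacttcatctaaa
UF_Ocu_UN_116209: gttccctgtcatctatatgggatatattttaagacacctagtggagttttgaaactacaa

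Levels below are log2 units of the processed signal relative to each array's 75th percentile, taken over the probes that exceeded background on every array. A probe counted as well above background on an array where the flag of the scanner software was set for all its spots. On each array 19.4% to 29.4% of the UN probes were well above background (median 22.9%), against 51.2% to 64.5% of the AF probes (median 54.8%). The AF share was higher on 30 of 30 arrays. The groups overlapped: the UN share was 22.5% and 19.4% in unwounded skin, 21.3% to 26.1% in wounds at day 0, and 20.6% to 29.4% over the wounds at days 3 and 5. Over the series 1162 UN probes (14.3%) were well above background on all 30 arrays, 5298 (65.1%) on none and 2569 (31.6%, 95% Wilson interval 30.6% to 32.6%, counting error only) on 2 arrays or more. The last are the probes tested below. The AF class reached 42.9% on all arrays and 66.1% on 2 or more.

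The flag is itself set by signal, so a comparison at like signal describes the classes and does not account for the gap between them. When the AF probes were weighted to the spread of the UN probes over 10 equal bins of mean level, 34.2% of them were well above background on 2 arrays or more, against 31.6% of the UN probes. On all arrays the shares were 13.8% for AF and 14.3% for UN, and on no array 61.5% and 65.1%. Among tested probes of like level the mean SD within groups was 0.53 for AF and 0.60 for UN. The number of spots differs by class, since every AF probe had 2 spots while 3185 UN probes had 1, and its part in this SD was not tested. Arrays of a group correlated over the tested UN probes with r between 0.85 and 0.99 (median 0.96 over these probes, which are not independent replicates).

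Detection depended on orientation and on the kind of source. Of the UN probes with rc 38.7% were well above background on 2 arrays or more, and of those without it 24.4%. For contigs whose names begin with R4 the shares were 65.1% with rc and 22.7% without, and for reads whose names end in x1 they were 41.04% and 18.7%. The order was the opposite for reads ending in y1, with 18.7% with rc and 33.4% without, and for GenBank entries (names beginning with gb), with 30.3% and 54.3%. On 30 of 30 arrays the rc share was higher for R4 and for x1, and on 0 of 30 arrays it was higher for y1 and for gb. The orientations chosen for the AF class leaned the same way: 90.4% of the AF probes from R4 contigs and 76.2% of those from x1 reads carried rc, against 7.26% from y1 and 12.4% from gb sources.

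Taken by pair, both members were well above background on 2 arrays or more in 419 of the 4056 pairs, only the rc member in 1151, only the other member in 572 and neither in 1914. Of the 1723 pairs with 1 such member it was the rc member in 66.8%, with 88.4% for R4, 77.1% for x1, 30.1% for y1 and 24.4% for gb. In 509 pairs the rc member was well above background on all 30 arrays while its partner was on none, and in 193 pairs the reverse held. Among the 130 exact reverse complements, where base composition is mirrored, 16 pairs had both members, 30 only the rc member, 19 only the other and 65 neither. Differences in level between partners are not given for the pairs as a set, since partners are different probes.

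The suffix of the source name (the text that follows the read or contig itself) divides the class further, and its remaining letters are not explained in the labels. There were 3332 probes with suffix 0, 3339 with 0rc, 731 with 2_nr0nt2 and 730 with 2rc_nr0nt2, and 3 each with 2_nr2nt0 and 2rc_nr2nt0. The shares well above background on 2 arrays or more were 23.9% for 0, 36.2% for 0rc, 26.7% for 2_nr0nt2 and 50.5% for 2rc_nr0nt2. Mean GC content was 47.4% over the suffixes that start with 0 and 40.7% over those that start with 2. In the suffixes starting with 2, R4 contigs reached 71.2% with rc and 14.8% without, x1 reads 68.9% and 14.1%, and y1 reads 14.9% and 47.1%.

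The poly(A) hexamers were then counted in the probes. AATAAA, searched as written 5′ to 3′, stood in 6.64% of the UN probes and 8.59% of the AF probes, and its reverse complement stood in 4.36% and 3.74%. In UN probes of R4 contigs it was found in 14.6% with rc and 5.75% without, in x1 reads in 7.94% and 5.03%, in y1 reads in 4.53% with rc and 5.93% without, and in gb sources in 4.57% with rc and 4% without. In R4, x1 and y1 sources it was thus more frequent in the orientation detected more often, and in gb sources it was not. It stood in 8.68% of the UN probes well above background on 2 arrays or more and in 5.69% of the others. ATTAAA stood in 3.19% of the UN probes and 3.42% of the AF probes, and on the opposite strand in 2.69% and 2.71%. By orientation ATTAAA stood in 2.92% of x1 probes with rc and 2.93% without, and in 3.72% and 2.61% of y1 probes, where its order was the opposite of the order of detection. In gb sources it stood in 3.43% with rc and 1.14% without, also opposite to detection. In R4 sources it stood in 4.92% and 4.1%, in the order of detection. GC content averaged 46.2% over the class and 48.7% over its tested probes, and the median longest run of a single base was 5 bases (4 in AF).

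Few UN probes repeat sequence found elsewhere on the array. At least 20 bases were shared with another probe on the same strand by 392 UN probes, with an AF probe by 176 of them, and 8 had their whole sequence on another probe. On the opposite strand 366 shared 20 bases with a probe other than their partner, 182 of them with an AF probe. Such probes can report the same transcript and are not separate replicates.

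Of the 5 probes of the class with the highest mean signal, 3 had a partner of the other orientation that was above background on no array. Over the class 65.1% of the probes were above background on no array, so such partners are not particular to the brightest probes. UF_Ocu_UN_123320 had the highest mean level, 5.37, and was well above background on all 30 arrays. It was saturated on 1 array, as were UF_Ocu_UN_117318, UF_Ocu_UN_121371 and UF_Ocu_UN_117027. Its levels were 5.19 and 5.47 in unwounded skin and from 5.34 to 6.03 with a median of 5.79 in uncovered wounds at day 5, and on 4 arrays of other groups its outlying spot was left out. UF_Ocu_UN_116127, with 57 bases of the opposite strand, was well above background on no array, at -8.42 and -9.19 in unwounded skin and from -9.01 to -7.76 with a median of -8.13 in uncovered wounds at day 5. UF_Ocu_UN_117318 (mean level 4.97) and UF_Ocu_UN_117027 (4.66) likewise had partners above background on no array. UF_Ocu_UN_121371 (4.89) and UF_Ocu_UN_122301 (4.77) had partners above background on all 30 arrays.

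The groups were then compared in a single limma fit over all 12342 tested probes of the array, 2569 of them UN, with calls made at an adjusted p under 0.05 (Benjamini-Hochberg, over all tested probes). These measured facts bear on every comparison. First, the 5298 UN probes never above background also shifted between groups, and that shift is given beside each count. Second, deviations of arrays of different groups from their group means correlated on the same slide (median r 0.30, over 0.1 in 25 of 31 pairs) and hardly on different slides (median r -0.04, 106 of 338 pairs), so counts with the slide as a block are given too. The part of either in the calls was not tested.

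At day 3, 189 of the 2569 UN probes were higher and 82 lower in covered than in uncovered wounds (7.36% and 3.19%), against 9.07% and 7.23% of all tested probes. The median log2 change was -0.05 over the UN probes and 0.04 over all tested probes, and the UN probes never above background had a median change of -0.34. The share that rose differed by suffix, with no test of the difference made: 77 of 369 tested probes with 2rc_nr0nt2 (20.9%) and 34 of 195 with 2_nr0nt2 (17.4%) rose, against 48 of 1208 with 0rc (3.97%) and 30 of 796 with 0 (3.77%). These shares went with GC content. Among the 1162 UN probes above background on all arrays, 80 rose and 8 fell of the 348 with at most 40% GC, and 4 rose and 20 fell of the 470 with over 50%. In the AF class 474 rose and 214 fell of 2901 with at most 40% GC, and 22 rose and 140 fell of 1308 with over 50%. Within the class at most 40% GC, 56 of 197 UN probes of suffixes starting with 2 rose, and 24 of 151 of those starting with 0.

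Among the probes that rose, UF_Ocu_UN_119427 was well above background on all arrays. Its levels were from -2.13 to 0.12 with a median of -0.44 in uncovered wounds at day 3 and 1.58, 1.53, 1.68, 2.38 and 2.17 in covered wounds at day 3. The covered arrays were all higher, 6.06-fold on average (log2 change 2.60, standard error 0.39, adjusted p = 3.79e-05). Unwounded skin had 2.07 and 3.36. UF_Ocu_UN_119077 was from -4.00 to -1.92 with a median of -2.65 in uncovered and -1.13, -1.05, -1.18, -1.18 and -1.01 in covered wounds at day 3. The covered arrays all lay above the uncovered arrays (log2 change 1.73, standard error 0.31, adjusted p = 0.000331). UF_Ocu_UN_118064, which holds AATAAA, was from -4.14 to -1.36 with a median of -1.91 in uncovered and -0.49, -0.61, 0.07, -0.92 and -0.62 in covered wounds (log2 change 1.73, standard error 0.37, adjusted p = 0.00226). UF_Ocu_UN_119795 exceeded background at day 3 on 5 of 5 covered arrays and 0 of 6 uncovered ones, so only a bound can be given: at least 6.57-fold higher with covering (log2 change 3.37, standard error 0.63, adjusted p = 0.000529). Such a bound sets the mean of the bright group against, for each dim array, the higher of the probe's own level and the lowest level well above background there. By the same bound UF_Ocu_UN_118093 was at least 1.53-fold higher (adjusted p = 3.70e-05), though it passed the filter of 2 arrays only through covered wounds at day 3. With normexp background correction these last calls were lost (adjusted p = 0.0961 for UF_Ocu_UN_119795 and 0.827 for UF_Ocu_UN_118093). UF_Ocu_UN_119960, the 2rc_nr0nt2 probe with the smallest p at day 3, was from -6.22 to -5.64 with a median of -5.77 in uncovered and -4.66, -4.9980, -4.81, -4.21 and -4.31 in covered wounds, a rise in all 5 covered arrays that normexp also lost (adjusted p = 0.602).

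Among the largest falls with covering were probes far above unwounded skin in wounds at day 0. UF_Ocu_UN_121601 was -3.33 and -5.22 in unwounded skin and from 2.70 to 3.46 with a median of 3.07 at day 0. It stayed from 0.01 to 3.24 with a median of 2.38 in uncovered wounds at day 3 and was -1.91, -3.37, -3.29, -3.43 and -3.48 in covered wounds at day 3. All 5 covered arrays lay below all 6 uncovered arrays, a 36.5-fold difference (log2 change -5.19, standard error 0.50, adjusted p = 2.11e-08). UF_Ocu_UN_117997 went the same way, with -3.58 and -4.97 in unwounded skin, from 1.77 to 2.84 with a median of 2.25 at day 0, from -1.63 to 2.33 with a median of 0.93 in uncovered wounds at day 3 and -2.28, -2.99, -3.41, -3.95 and -3.84 in covered wounds at day 3 (log2 change -4.10, standard error 0.54, adjusted p = 5.28e-06). Its exact reverse complement UF_Ocu_UN_120330 was above background on no array. UF_Ocu_UN_116568 was from -1.13 to 2.14 with a median of 0.73 in uncovered and -1.34, -1.61, -2.05, -2.33 and -1.9999 in covered wounds at day 3 (log2 change -2.59, standard error 0.36, adjusted p = 1.76e-05). It shares 20 or more bases with the opposite strand of an AF probe besides its partner. UF_Ocu_UN_121046, from a GenBank entry and in the orientation without rc, was from -4.65 to -3.18 with a median of -3.62 in uncovered and -7.67, -7.18, -7.94, -6.97 and -7.52 in covered wounds at day 3, above background on 1 of the 5 covered arrays (log2 change -3.69, standard error 0.33, adjusted p = 6.63e-09). UF_Ocu_UN_120322 was from -3.91 to -2.31 with a median of -3.10 in uncovered and -5.64, -5.81, -5.95, -7.48 and -7.04 in covered wounds (log2 change -3.28, standard error 0.43, adjusted p = 4.72e-06), above background on 2 of the 5 covered arrays. In none of these probes did the covered and uncovered arrays of day 3 overlap. The probes named for each comparison, above and below, were picked for large changes or small p in these data. Arrays of theirs that do not overlap are thus no separate support.

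The slide block gave 190 UN probes higher and 152 lower at day 3, and the scan day block 209 and 150. Of the UN probes called without a slide, those that changed in the same direction on the slide left out were 195 of 197 (slide 5), 219 of 225 (slide 9) and 153 of 159 (slide 11). The median change of all tested UN probes on these slides was 0.03, -0.23 and 0.28. Such counts, here and below, have no share over all tested probes beside them, and a shift of the whole class on a slide enters them. With normexp the split turned to 32 higher and 46 lower.

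At day 5, 93 UN probes were higher and 296 lower in covered wounds (3.62% and 11.5%), against 7.16% and 6.58% of all tested probes. The median log2 change was -0.38 over the UN probes and -0.01 over all, and -0.63 over the UN probes never above background. Calls split by suffix here too. Of the tested probes 179 of 1208 with 0rc and 108 of 796 with 0 fell, while 40 of 369 with 2rc_nr0nt2 and 17 of 195 with 2_nr0nt2 rose. Of the UN probes above background on all arrays, 49 rose and 9 fell of 348 with at most 40% GC, and 0 rose and 72 fell of 470 with over 50% GC. The AF class had 467 and 50 of 2901, and 1 and 137 of 1308. On this always-detected set 55 of 1162 UN probes rose (4.73%) and 115 fell (9.90%). Of AF probes weighted to the same levels 9.33% rose and 4.42% fell. At day 3 the shares that rose and fell were 9.21% and 4.13% for UN, and 10.4% and 7.97% for the weighted AF probes. The weights match level and not GC content, whose part in these differences was not tested.

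The rises at day 5 were small. UF_Ocu_UN_116788 was from -5.29 to -4.39 with a median of -4.73 in uncovered and -3.24, -4.24, -3.90, -3.48 and -3.60 in covered wounds at day 5, with no overlap (log2 change 1.07, standard error 0.19, adjusted p = 0.000552). UF_Ocu_UN_116209 was from -5.45 to -4.87 with a median of -5.20 in uncovered and -3.50, -4.68, -4.27, -3.62 and -4.10 in covered wounds (log2 change 1.13, standard error 0.28, adjusted p = 0.00798). UF_Ocu_UN_119880 was from -2.08 to -1.65 with a median of -1.93 in uncovered and -0.42, -0.99, -0.83, -0.46 and -1.07 in covered wounds (log2 change 1.17, standard error 0.27, adjusted p = 0.00412). The covered arrays were all higher in these probes. Of the uncovered arrays, 5 of 6 exceeded background for UF_Ocu_UN_116788 and 4 of 6 for UF_Ocu_UN_116209. UF_Ocu_UN_116760 and UF_Ocu_UN_120606 were called at adjusted p = 0.0319 and 0.0278. Both calls were lost when the slide (adjusted p = 0.0626 and 0.069) or the scan day (0.0812 and 0.0549) was a block, and without covered day 5 replicate 1 (0.131 and 0.106), and the covered and uncovered arrays overlapped for UF_Ocu_UN_116760. Normexp background correction lost the calls of UF_Ocu_UN_116788 (adjusted p = 0.159) and UF_Ocu_UN_116209 (adjusted p = 0.347).

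The falls were larger. UF_Ocu_UN_121601 was from -0.14 to 0.96 with a median of 0.34 in uncovered and -5.28, -2.76, -2.94, -3.81 and -1.80 in covered wounds at day 5, a 13.4-fold difference with no overlap (log2 change -3.74, standard error 0.50, adjusted p = 9.23e-06). UF_Ocu_UN_121046 was from -4.86 to -3.72 with a median of -4.46 in uncovered and -8.85, -7.42, -7.27, -8.27 and -7.21 in covered wounds, where it was above background on 0 of 5 arrays, and was thus at least 4.74-fold lower with covering (log2 change -3.38, standard error 0.33, adjusted p = 3.64e-08). UF_Ocu_UN_116553 was from -3.75 to -2.33 with a median of -2.98 in uncovered wounds at day 5 and -8.86, -5.17, -5.23, -5.30 and -5.16 in covered ones, 4 of which exceeded background (log2 change -2.95, standard error 0.55, adjusted p = 0.000756). UF_Ocu_UN_116284 was from -5.20 to -3.15 with a median of -4.46 in uncovered and -10.21, -7.15, -6.64, -6.43 and -6.23 in covered wounds, 1 of which exceeded background (log2 change -3.01, standard error 0.48, adjusted p = 0.000125), and UF_Ocu_UN_121003 was from -5.39 to -3.77 with a median of -4.58 in uncovered and -10.16, -7.78, -7.60, -6.11 and -6.39 in covered wounds, at least 3.98-fold lower with covering (log2 change -3.01, standard error 0.47, adjusted p = 8.33e-05). In wounds at days 0 and 3 neither of these was above background on any array. Both passed the filter of 2 arrays only through uncovered wounds at day 5, where they were high. They share 20 bases or more on the same strand with 40 and 35 other probes, and both calls were lost with normexp (adjusted p = 0.0891 for UF_Ocu_UN_116284 and 0.13 for UF_Ocu_UN_121003).

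Covered day 5 replicate 1 lay apart: its UN probes never above background had a median level of -10.3, against -8.18 for the median array of its group. Without it 43 UN probes rose and 162 fell at day 5. The count was 52 and 192 without uncovered day 5 replicate 5. With the slide as a block it was 98 and 518, with the scan day as a block 48 and 242, with quantile normalization 218 and 295, and with normexp 9 and 68. Of the calls made without a slide, 252 of 253 (slide 1), 241 of 247 (slide 3) and 327 of 364 (slide 9) had the same direction on it. All tested UN probes had a median change of -0.39, -0.29 and -0.09 on these slides.

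On both days 39 UN probes rose with covering (20.6% of those that rose at day 3 and 41.9% of those at day 5), and 37 fell on both (45.1% and 12.5%). None changed in opposite directions. These counts have no share over all tested probes beside them, so they do not set the class apart. The difference between the covering effects at day 5 and day 3 was called in 6 of 2569 UN probes (0.234%) and in 15 of all 12342 (0.122%). UF_Ocu_UN_119233 had mean levels of -3.44 uncovered and -3.60 covered at day 3, and of 2.003 uncovered and -0.23 covered at day 5. UF_Ocu_UN_121753 had -3.52, -3.62, 1.07 and -1.83 in the same order of groups. Both were above background on all 30 arrays, with a GC content of 61.7% and 60%. UF_Ocu_UN_123176, a 2_nr0nt2 probe, was from -8.86 to -8.26 with a median of -8.49 uncovered and -7.39, -7.14, -7.24, -6.69 and -7.33 covered at day 3, and from -8.61 to -7.56 with a median of -8.03 uncovered and -8.04, -8.05, -8.18, -8.19 and -8.09 covered at day 5. At day 3 the covered arrays were all higher than the uncovered ones. This probe was seen above background on 2 of 30 arrays, and its day 3 call was lost with normexp (adjusted p = 0.956).

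Wounds at day 0 had 279 UN probes higher and 419 lower than unwounded skin (10.9% and 16.3%), against 17.1% and 20.2% of all tested probes. The median log2 change was 0.05 over the UN probes and -0.02 over all tested, and -0.25 over the UN probes never above background. UF_Ocu_UN_121601 rose 165-fold (log2 change 7.37, standard error 0.67, adjusted p = 1.45e-08) and UF_Ocu_UN_117997 rose 96.7-fold (log2 change 6.59, standard error 0.73, adjusted p = 2.07e-07), with the levels given above. UF_Ocu_UN_120322 was above background on neither unwounded array and rose at least 10.1-fold. UF_Ocu_UN_120394 was -7.55 and -8.99 in unwounded skin, above background on neither array, and from -4.42 to -2.86 with a median of -3.69 at day 0, at least 7.99-fold higher. It was -8.24, -9.02, -8.45, -8.92 and -8.59 in covered wounds at day 3 and from -6.94 to -3.36 with a median of -5.70 in uncovered ones, where 6 of 6 arrays lay higher. UF_Ocu_UN_120397 was from -3.42 to -0.88 with a median of -1.49 at day 0 against -7.14 on 1 unwounded array, as the outlying spot on the other was left out, so no fold or test is given for it.

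Of the probes that fell at day 0, UF_Ocu_UN_118492, a 2rc_nr0nt2 probe with AATAAA, was -4.68 and -3.76 in unwounded skin and from -9.55 to -8.62 with a median of -8.72 at day 0, above background on 0 of 6 arrays. It was thus at least 6.14-fold lower (log2 change -4.63, standard error 0.51, adjusted p = 2.07e-07), and at day 3 its levels were from -5.71 to -3.65 with a median of -4.18 in uncovered and -3.19, -3.29, -3.14, -2.21 and -2.85 in covered wounds. UF_Ocu_UN_116775 was -4.19 and -2.18 in unwounded skin, from -8.44 to -6.62 with a median of -7.51 at day 0, from -6.89 to -6.22 with a median of -6.40 in uncovered wounds at day 5 and -5.51, -6.19, -5.68, -7.05 and -6.71 in covered wounds at day 5, so that the wounded arrays of these groups all lay below both unwounded arrays. UF_Ocu_UN_121907 was 0.55 and -0.91 in unwounded skin and from -5.08 to -2.56 with a median of -4.80 at day 0 (log2 change -4.04, standard error 0.77, adjusted p = 0.000184), and from 0.26 to 1.25 with a median of 0.60 in uncovered wounds at day 5. UF_Ocu_UN_118945 was 1.33 and 0.49 in unwounded skin and from -3.77 to -1.63 with a median of -2.92 at day 0 (log2 change -3.65, standard error 0.63, adjusted p = 5.86e-05). Its partner UF_Ocu_UN_119584, which shares 42 bases on the opposite strand, was above background on all 30 arrays (mean level 2.09). UF_Ocu_UN_119974 was 3.07 and 4.08 in unwounded skin and from -3.62 to 1.77 with a median of -0.34 at day 0 (log2 change -4.01, standard error 1.13, adjusted p = 0.0064), and the call was lost without unwounded replicate 2 (adjusted p = 0.102). With normexp the call of UF_Ocu_UN_118492 was lost (adjusted p = 0.102). Normexp also lost the calls of UF_Ocu_UN_116775 at day 5 against unwounded skin (limma adjusted p = 0.061 uncovered and 0.134 covered). Without unwounded replicate 2 the log2 change of UF_Ocu_UN_116775 in covered wounds at day 5 was -2.04.

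Day 0 calls went with GC content too. Of the UN probes above background on all arrays, 26 rose and 124 fell of 348 with at most 40% GC. Of the 470 with over 50% GC 55 rose and 54 fell. The AF class had 585 and 772 of 2901, and 231 and 238 of 1308. By suffix 129 of 369 tested probes with 2rc_nr0nt2 fell at day 0 and 18 rose, against 149 fallen and 148 risen of 1208 with 0rc. With 2 unwounded arrays on different slides the count rests on each: without unwounded replicate 2 it was 87 higher and 263 lower, and without unwounded replicate 1 it was 670 higher and 347 lower, which turns the balance of the calls. The slide block gave 178 and 549, the scan day block 135 and 620, and normexp 200 and 174.

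Against day 0, uncovered wounds at day 3 had 415 UN probes higher and 145 lower (16.2% and 5.64%; all tested probes 20.5% and 15.1%). Covered wounds at day 3 had 541 higher and 228 lower (21.1% and 8.88%; all tested 26.3% and 18.2%). The median log2 changes over UN probes were 0.23 and 0.21, over all tested probes 0.13 and 0.17, and over UN probes never above background 0.37 and 0.03. UF_Ocu_UN_118492 rose at least 5.74-fold in uncovered and at least 14.9-fold in covered wounds (log2 change 5.92, standard error 0.38, adjusted p = 4.91e-12 for the latter). UF_Ocu_UN_118236 was from -8.33 to -5.55 with a median of -6.64 at day 0 and from -4.47 to -1.72 with a median of -3.63 in uncovered wounds at day 3, with 3 of 6 arrays above background at day 0 (log2 change 3.38, standard error 0.78, adjusted p = 0.00118). UF_Ocu_UN_115721 and UF_Ocu_UN_116146 come from contigs of 1 cluster name and fell together. The first was from -1.60 to 0.74 with a median of -1.05 at day 0 and from -3.94 to -3.32 with a median of -3.59 in uncovered wounds at day 3 (log2 change -2.90, standard error 0.38, adjusted p = 1.05e-06). The second was from -3.02 to -0.73 with a median of -2.20 and from -5.37 to -4.81 with a median of -5.14 (log2 change -3.09, standard error 0.36, adjusted p = 2.23e-07).

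The split of these calls depended on the scaling. Scaled on all probes it was 302 higher and 207 lower for uncovered and 420 and 306 for covered wounds at day 3, with quantile normalization 310 and 211, and 447 and 310. These settings moved the median change of all tested probes from 0.13 to -0.04 (both settings) in uncovered wounds, and from 0.17 to 0.00 and 0.02 in covered wounds. With normexp the covered wounds had 214 higher and 153 lower. The slide block gave 592 and 224 for uncovered and 644 and 316 for covered wounds, and the scan day block 551 and 175, and 645 and 296. Calls made without a slide had the same direction on it in 411 of 484 (slide 2), 472 of 497 (slide 7), 445 of 463 (slide 10) and 441 of 573 (slide 11) for uncovered wounds, and in 648 of 672 (slide 4) and 657 of 689 (slide 11) for covered wounds. All tested UN probes had medians of 0.19, -0.01, 0.46 and -0.02 on the slides of uncovered wounds. On those of covered wounds the medians were 0.09 and 0.26.

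Uncovered wounds at day 5 had the most calls against day 0: 1369 UN probes were higher and 238 lower (53.3% and 9.26%), against 44.1% and 21.4% of all tested probes. The median log2 change was 0.79 over the UN probes, 0.47 over all tested and 0.86 over the UN probes never above background. Of AF probes above background on all arrays, weighted to the UN levels but not to GC content, 37.5% rose and 28.1% fell. Of the 1162 UN probes above background on all arrays 627 rose and 135 fell (54.0% and 11.6%). Of these, 308 rose and 10 fell of 470 with over 50% GC, and 129 rose and 93 fell of 348 with at most 40%. The AF class had 743 and 116 of 1308, and 715 and 1298 of 2901. Covered wounds at day 5 had 894 higher and 221 lower (34.8% and 8.60%), against 38.1% and 18% of all tested probes. Their medians were 0.40 over UN probes, 0.33 over all tested and 0.24 over UN probes never above background.

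UF_Ocu_UN_119434 was from -8.26 to -4.97 with a median of -7.27 at day 0 and from -0.93 to 0.29 with a median of -0.54 in uncovered wounds at day 5 (log2 change 6.55, standard error 0.59, adjusted p = 8.49e-10). At day 0 it exceeded background on 2 of the 6 arrays, and it lay lower in covered wounds at day 5, at -5.43, -3.06, -3.49, -2.19 and -2.20. UF_Ocu_UN_118225 was from -8.70 to -6.02 with a median of -7.64 at day 0, from -1.92 to -0.92 with a median of -1.21 in uncovered and -6.61, -2.84, -3.33, -2.05 and -2.50 in covered wounds at day 5 (log2 change 6.22, standard error 0.68, adjusted p = 2.02e-08 for uncovered wounds). For both probes the uncovered arrays of day 5 overlapped with neither group. UF_Ocu_UN_118225 likewise exceeded background on 2 of 6 arrays at day 0. UF_Ocu_UN_116030 was from -6.86 to -3.52 with a median of -5.75 at day 0 and -2.44, -1.49, -0.26, 1.25 and -0.67 in covered wounds at day 5 (log2 change 4.86, standard error 0.89, adjusted p = 4.82e-05), while its partner UF_Ocu_UN_117727, which shares 56 bases on the opposite strand, was above background on all 30 arrays. UF_Ocu_UN_121601 and UF_Ocu_UN_117997 fell 85.5-fold and 50.2-fold from day 0 to the covered wounds of day 5. UF_Ocu_UN_116443 fell in uncovered wounds, from between -3.87 and -2.75 with a median of -3.24 at day 0 to between -8.16 and -4.16 with a median of -7.76, with 1 of 6 arrays above background (log2 change -3.59, standard error 0.82, adjusted p = 0.000466).

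With all probes setting the scale, 888 UN probes were higher and 376 lower in uncovered wounds at day 5 and 631 and 379 in covered ones, and with quantile normalization 768 and 452, and 637 and 493. The median change of all tested probes moved from 0.47 to 0.07 and -0.02 in uncovered wounds, and from 0.33 to 0.03 and 0.02 in covered ones. The UN medians under these settings were 0.39 and 0.18 in uncovered wounds and 0.09 and 0.02 in covered ones. Normexp gave 530 and 148 for uncovered and 339 and 177 for covered wounds. The slide block gave 1597 and 255, and 1135 and 235, and the scan day block 1596 and 258, and 1277 and 216. Calls made without a slide had the same direction on it in 1448 of 1552 (slide 7) and 1411 of 1443 (slide 11) for uncovered wounds, and in 904 of 924 (slide 2) for covered wounds. The class as a whole was shifted up there: all tested UN probes had medians of 0.59, 0.71 and 0.65 in the same order.

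Against unwounded skin, uncovered wounds at day 5 had 883 UN probes higher and 162 lower (34.4% and 6.31%; all tested 21.9% and 10.4%). Covered wounds had 124 higher and 14 lower (4.83% and 0.545%; all tested 6.6% and 1.27%). The median log2 changes over UN probes were 0.89 and 0.46, over all tested 0.31 and 0.26, and over UN probes never above background 0.62 and -0.02. UF_Ocu_UN_118571 was -8.52 and -9.27 in unwounded skin, from -3.54 to -2.56 with a median of -3.22 in uncovered and -7.42, -4.23, -2.27, -4.38 and -3.94 in covered wounds at day 5. It was above background on neither unwounded array and was at least 11.7-fold higher in uncovered wounds (log2 change 5.81, standard error 0.95, adjusted p = 8.02e-05). UF_Ocu_UN_121510 was -8.08 and -9.31, from -3.85 to -2.26 with a median of -3.02 and -6.96, -4.16, -2.24, -4.50 and -3.87 in the same groups, at least 12.8-fold higher in uncovered wounds (log2 change 5.72, standard error 0.92, adjusted p = 7.19e-05). In covered wounds both were called (adjusted p = 0.00409 for each) but not without unwounded replicate 2 (adjusted p = 0.112 and 0.147). The call of UF_Ocu_UN_118571 there was also lost with the slide as a block (adjusted p = 0.0764) and on the authors' values (0.0547), and that of UF_Ocu_UN_121510 on the authors' values (0.0781). UF_Ocu_UN_119771 fell in uncovered wounds, from -3.09 and -2.38 to levels from -7.56 to -3.88 with a median of -7.17, with 2 of 6 arrays above background (log2 change -3.44, standard error 0.99, adjusted p = 0.0111), and UF_Ocu_UN_118017 was -2.51 and 1.33 in unwounded skin and -5.14, -2.43, -2.64, -4.14 and -3.97 in covered wounds, where the groups overlapped (log2 change -3.07, standard error 0.68, adjusted p = 0.00509). Both of these calls were lost without unwounded replicate 2 (adjusted p = 0.165 and 0.602).

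These counts rest on 2 unwounded arrays and were unstable. Unwounded replicate 2 and covered day 5 replicate 1 were the only 2 arrays of slide 6. Each had the lowest median level of its group over the UN probes never above background (-9.10 and -10.3). The part of the slide in these counts was not tested. Without unwounded replicate 2 there were 129 higher and 26 lower in uncovered and 21 and 1 in covered wounds, without unwounded replicate 1 there were 585 and 51 in covered wounds, and without covered day 5 replicate 1 there were 682 and 41 in them. The slide block gave 432 and 70 for uncovered and 101 and 21 for covered wounds, and the scan day block 250 and 79, and 84 and 14. When all probes set the scale there were 624 and 274, and 68 and 26, and with quantile normalization 472 and 290, and 63 and 20. These scalings moved the median of all tested probes to -0.01 and -0.04 in uncovered wounds and to 0.04 (both) in covered wounds. Calls made without a slide had the same direction on it in 1138 of 1264 (slide 5) for uncovered and 31 of 37 (slide 6) for covered wounds. All tested UN probes had medians of 0.33 and -0.03 on these slides.

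Some UN probes were above background on every array of a wounded group and on neither unwounded array. UF_Ocu_UN_116887 was -5.85 and -7.94 in unwounded skin, from -4.69 to -1.73 with a median of -3.74 in uncovered wounds at day 3 and from -1.77 to -0.57 with a median of -1.52 in uncovered wounds at day 5. UF_Ocu_UN_120206 was -5.75 and -7.14 in unwounded skin, from -2.80 to -2.19 with a median of -2.50 in uncovered and -2.73, -2.33, -1.96, -1.80 and -2.20 in covered wounds at day 5. UF_Ocu_UN_118574 was -8.10 and -9.02 in unwounded skin, from -3.52 to -1.61 with a median of -3.05 in uncovered wounds at day 3 and -2.39, -1.75, -2.45, -4.01 and -5.66 in covered wounds at day 3. Of the arrays of day 5, 1 of 6 uncovered and 1 of 5 covered exceeded background. By group medians the first 2 of these probes were highest at day 5 and the last at day 3.

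The changes of partners of opposite strand were set side by side. Among the 419 pairs with both members tested, 203 had both called in uncovered wounds at day 5 against day 0, 188 in the same direction and 15 in opposite directions. In that comparison 1369 of the 1607 UN calls were higher, so most calls share a direction whether paired or not. The r of the partners' changes was 0.21 over the 419 pairs, which share their arrays. The counts were 9 and 0 for covering at day 3, 8 and 0 for covering at day 5, and 30 and 5 for wounds at day 0 against unwounded skin. Opposite calls in at least 1 comparison were seen in 32 pairs. UF_Ocu_UN_121885 was from -8.60 to -5.57 with a median of -8.18 at day 0 and -4.05, -3.47, -5.05, -2.37 and -2.81 in covered wounds at day 3, above background on 2 of 6 and 5 of 5 of these arrays (log2 change 3.96, standard error 0.72, adjusted p = 5.51e-05). UF_Ocu_UN_122269, which shares 36 bases with it on the other strand, was from -7.69 to -4.19 with a median of -5.50 at day 0 and -8.12, -8.08, -8.65, -7.62 and -6.80 in covered wounds at day 3, above background on 4 of 6 and 1 of 5 of these arrays (log2 change -2.04, standard error 0.54, adjusted p = 0.00293). UF_Ocu_UN_120079 was -2.27 and -4.51 in unwounded skin and from -0.92 to 0.46 with a median of -0.55 at day 0 (log2 change 3.02, standard error 0.67, adjusted p = 0.000818). UF_Ocu_UN_122971, with 53 bases of its opposite strand, was -3.49 and -1.93 in unwounded skin and from -5.47 to -3.75 with a median of -4.51 at day 0 (log2 change -1.86, standard error 0.47, adjusted p = 0.00287). These pairs were singled out after their values were seen.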

How the data were processed

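RNA from 30 epidermis samples was hybridised to 30 one-colour arrays. The intensity values are the processed signals (gProcessedSignal) as deposited, made by Agilent Feature Extraction from Cy3 fluorescence with background subtraction, per the file headers. The flags for well above background, saturation and outlying spots are the scanner software's own, as deposited. The submitters' processing notes name limma. The deposited table of the authors' processed intensities served as an alternative: its columns have medians between 288 and 293 on a linear scale, and it correlates with the scanner signal at r 0.95 to 0.98 per array. Its normalization is not given in the sources used here.

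Spots flagged as outliers were left out, log2 signals were averaged per probe, and each array was scaled by its 75th percentile taken over 7446 probes that exceeded background on every array. Probes well above background on 2 arrays or more were tested with limma 3.58.1 in R 4.3.3, in a fit of 6 group means, with Benjamini-Hochberg adjustment per comparison. The number of arrays limits the precision.

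Named probes were those with the largest changes among calls above background on every array of the brighter group (5 each way for covering and for day 0 against unwounded skin, 2 each way in the other comparisons), the 5 highest mean levels, 3 above background in a wounded group but on neither unwounded array, and the smallest p of each suffix at day 3 (47 in all). Partners and strand pairs were added after their values were seen, as were the splits by GC content and the set above background on all arrays. The members and lists were chosen with earlier results of these data known. Gene lists and cell type markers that had been listed could not be used, since the array files name no gene. Alternatives were the scaling, quantile normalization, normexp background correction (offset 50), no filter, the authors' values, blocks for slide, scan day and replicate number, and each array left out.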

Additional observations from a re-analysis of the deposited data

Results flagged for a closer look

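In 23 of 246 sets of 4 to 6 arrays checked, the highest or lowest array lay far from the others of its group by Dixon's criterion, which chance meets in about 1 set in 20. Covered day 5 replicate 1 was the lowest of its group in 7 of them. Its median level over the UN probes above background on all arrays was -3.0962. It was also lowest for UF_Ocu_UN_117997 (-5.43), UF_Ocu_UN_120322 (-8.40), UF_Ocu_UN_116284 (-10.21), UF_Ocu_UN_116553 (-8.86), UF_Ocu_UN_121907 (-2.08) and UF_Ocu_UN_118225 (-6.61). In the same group UF_Ocu_UN_119427 was highest on replicate 3 (2.14), UF_Ocu_UN_119077 on replicate 4 (-1.77) and UF_Ocu_UN_116443 on replicate 2 (-4.61).

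In covered wounds at day 3 replicate 4 was lowest for UF_Ocu_UN_116284 (-9.37) and UF_Ocu_UN_121003 (-9.53), and replicate 1 was highest for UF_Ocu_UN_121601 (-1.91) and UF_Ocu_UN_116443 (-5.90). In uncovered wounds at day 3 replicate 3 was highest for UF_Ocu_UN_119974 (1.91) and UF_Ocu_UN_119434 (-6.08), replicate 6 lowest for UF_Ocu_UN_123320 (4.70) and replicate 5 lowest for UF_Ocu_UN_120206 (-6.41). In uncovered wounds at day 5 replicate 4 was highest for UF_Ocu_UN_119880 (-1.65) and replicate 3 for UF_Ocu_UN_118236 (-2.07). At day 0 replicate 5 was lowest for UF_Ocu_UN_116553 (-8.76), replicate 6 lowest for UF_Ocu_UN_118492 (-9.55) and replicate 1 highest for UF_Ocu_UN_116030 (-3.52).

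The effect of covering differed between days 5 and 3 in 6 UN probes by limma's test of the difference. The day 5 minus day 3 values on the log2 scale were -2.48 for UF_Ocu_UN_116105 (adjusted p = 0.0421), -2.49 for UF_Ocu_UN_116333 (0.0421), -2.60 for UF_Ocu_UN_118624 (0.0276), -2.08 for UF_Ocu_UN_119233 (0.0287), -2.80 for UF_Ocu_UN_121753 (0.0421) and -1.44 for UF_Ocu_UN_123176 (0.00837). The first 3 of these were above background on uncovered day 5 arrays alone, on 3, 4 and 4 of 6. They passed the filter of 2 arrays only through the group where they were high, so their calls are no separate support for a difference.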

How the results depend on the processing

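Counts of called UN probes moved by over 1.5 times as follows; the cause was not tested. Normexp gave 78 and 77 for covering at days 3 and 5, 374 for day 0 against unwounded skin, 217 and 367 for uncovered and covered day 3 against day 0, 678 and 516 for day 5 against day 0, and 357 and 22 for day 5 against unwounded skin. For covered day 5 against unwounded skin quantile normalization gave 83, no filter 91, the authors' values 85 and removal of slide 6 39. For uncovered day 5 against unwounded skin the slide block gave 502, the scan day block 329 and removal of slide 6 273. The slide block gave 616 for covering at day 5, and no filter gave 6835 for uncovered day 5 against day 0, where all 8138 UN probes were tested. Normexp turned the median UN change of covered wounds against day 0 to -0.16 at day 3 and -0.16 at day 5. With the authors' values, higher and lower calls against day 0 were 290 and 216 (uncovered day 3), 433 and 309 (covered day 3), 764 and 445 (uncovered day 5) and 598 and 474 (covered day 5), and against unwounded skin 441 and 277, and 48 and 37. Leaving out single arrays gave 197 to 303 and 205 to 536 for covering at days 3 and 5, 350 to 1017 for day 0 against unwounded skin, 481 to 625 and 670 to 749 for day 3 against day 0, 1449 to 1629 and 1006 to 1414 for day 5 against day 0, and 155 to 1361 and 22 to 723 for day 5 against unwounded skin. Over all pairs of groups, deviations of same-numbered arrays had a median r of -0.0014 (63 pairs, 23 over 0.1). Arrays with different numbers had a median r of -0.0046 (306 pairs, 108 over 0.1). These pairs pool all groups, so they cannot tell whether both ears of an animal share a number. A block on the replicate numbers gave 247, 313, 587, 552, 727, 1573, 1087, 737 and 122 in the order of the report. Of the alternatives for named probes 1022 kept direction and call, 47 kept the direction and lost the call, and none reversed. Most of these were single arrays left out, with 548 kept and 17 lost. Normexp alone kept 40 calls and lost 16. The named probes were picked for large changes, so the total does not describe the calls of the class. Signal below background limits most UN probes to a bound.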
